A study of Mus musculus with 8 samples.

Results

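The genes described here lie in an 18 Mb window of mouse chromosome 13, from 60 to 78 Mb on the mm9 genome build, which holds a cluster of zinc finger genes. Members are the genes whose microarray probe maps into the window and carries a gene symbol, each read through its brightest probe, and they number 162 of 22897 genes with a symbol on the array. The window was chosen because genes in it stood out in the ratio of Tet1 KO to WT, so those ratios are given as a description and carry no test. Of the 162 members, 112 were kept because 1 group or more had signal well over background on both of its arrays, as were 16378 genes over the whole array. The 50 members that did not pass are accounted for below.

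RNA came from snap-frozen brain cortex and hippocampus of naive mice, either wild type (WT) or Tet1 KO, on the genetic background labelled 129 C57BL6 for all 8 samples. Tet1, on chromosome 10, encodes a dioxygenase that oxidises 5-methylcytosine in DNA. There were 4 groups of 2 samples, WT cortex, KO cortex, WT hippocampus and KO hippocampus, and the labels do not say whether the 2 samples of a group came from separate mice, nor give age or sex. The spread behind every p-value below is thus that between the deposited samples, and it may be only technical. The strain origin of the window in WT and KO mice was not analysed here. Each of the 4 arrays held a WT sample in the green dye (Cy3) and the KO sample of the same tissue and number in the red dye (Cy5). No array had the dyes turned round, so genotype and dye cannot be told apart in any KO to WT ratio.

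KRAB zinc finger proteins bind DNA through a row of zinc fingers and recruit the corepressor Trim28 and the histone methyltransferase Setdb1 through their KRAB domain. Their genes lie in tandem clusters that grew by duplication, many members are young and differ between mouse strains, and a best known function is the silencing of transposable elements. The chromosome 13 cluster includes the regulators of sex limitation, of which Rsl1 represses male-specific genes in liver. Around the cluster lie unrelated genes for metabolism, DNA repair and signalling.

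The probe sequences show what the arrays measured for the genes that differed most. The following are the first 30 of the 60 bases of each probe, and every position is on mm9 chromosome 13. The probe of Zfp874a, at chr13:67541780-67541839 on the minus strand, had the lowest KO to WT ratio among the members, and that of Zfp429, at chr13:67490657-67490716 on the minus strand, the next lowest.
Zfp874a: cctgtacctctgtatctgttgttgtggtat
Zfp429: gaatgtgtcaaagcctttgttaatgttata
Mtrr, at chr13:68699721-68699780 on the minus strand, and Fastkd3, at chr13:68731097-68731156 on the plus strand, are neighbours whose ratios had opposite signs.
Mtrr: ttgtgtatagtaacggtctcattttatagt
Fastkd3: ttagatgccttcaccgcatcgagcaggatt
Arsk and Rhobtb3 each have probes that differed in sign. The brightest Arsk probe lies at chr13:76199926-76199985 and the other at chr13:76198809-76198868. The brightest Rhobtb3 probe lies at chr13:76007299-76007358 and the other at chr13:76050228-76050287. All 4 are on the minus strand.
Arsk brightest probe: ttggaccagaagcttcgttctattgtaaac
Arsk other probe: cagctgttggcattcccaccaataggtagc
Rhobtb3 brightest probe: ctatatccctattctgctgtaggggactag
Rhobtb3 other probe: tgttagcaggatgacgtcaagggtggatgt

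Zinc finger genes share the codons that link 1 finger to the next, so a probe there can match several genes. The linker stretch ACTGGAGA, searched on both strands, was found in 168 of 39429 array probes (0.426%) and in 7 of the 210 window probes with a symbol (3.33%). The 60-base probe of Gm3325, at chr13:62151432-62151491 on the plus strand, is shown whole with the linker in capitals, because it is the one brightest probe with both the linker and a ratio of at least 0.5 in size.
Gm3325: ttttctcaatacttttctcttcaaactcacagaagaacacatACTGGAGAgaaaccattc
Its probe shared 24 bases with the probe of Gm14124, a gene outside the list of members. A shared stretch of 20 or more bases was found for 6 of the 112 members kept, and Zfp712, with 28 bases in common with a probe without a symbol, was the other gene with a large ratio among them. The values of Gm3325 and Zfp712 may therefore mix signal of more than 1 transcript. Zfp874a and Zfp429 shared no such stretch with another gene's probe.

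The upstream sequences are shown for Zfp874a and for its neighbour Zfp874b, which had ratios of opposite sign. They are the 250 bases before the RefSeq start on GRCm38.p6, both on the minus strand, at chr13:67451625-67451874 and chr13:67484254-67484503, with CpG dinucleotides in capitals since Tet1 acts on methylated cytosine.
Zfp874a: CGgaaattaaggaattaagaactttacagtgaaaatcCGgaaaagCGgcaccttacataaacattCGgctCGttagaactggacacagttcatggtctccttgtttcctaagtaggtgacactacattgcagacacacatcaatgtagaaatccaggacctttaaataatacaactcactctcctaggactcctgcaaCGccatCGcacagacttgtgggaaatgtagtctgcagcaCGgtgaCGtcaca
Zfp874b: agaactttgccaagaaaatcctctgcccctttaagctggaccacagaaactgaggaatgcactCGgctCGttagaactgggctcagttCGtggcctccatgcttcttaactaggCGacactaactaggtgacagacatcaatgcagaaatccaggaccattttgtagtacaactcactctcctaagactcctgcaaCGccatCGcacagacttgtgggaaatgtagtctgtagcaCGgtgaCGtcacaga
They were identical at 198 of 269 aligned columns (73.6%) and held 9 and 8 CpG dinucleotides. The upstream sequence of Zfp429 also held 8, and was identical to that of Zfp874a at 147 of 297 aligned columns (49.5%). Mtrr and Fastkd3 are transcribed away from each other, and the 40 bases between their nearest RefSeq starts, chr13:68582170-68582209 on GRCm38.p6, are shown on the Fastkd3 strand.
Between Mtrr and Fastkd3: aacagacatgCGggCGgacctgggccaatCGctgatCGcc
They held 4 CpG dinucleotides. Over the promoter window of the RefSeq table, from upstream of the start into the first exon, the median CpG count was 16 for the 11 genes lower in KO named below, 10.5 for the 6 of 7 higher genes with a RefSeq promoter, 13 for the 73 of 94 other members with one, and 7 over all 27025 genes in the promoter table. The methylation of these sequences was not measured.

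Signal on the arrays differed by dye. Between 49.7% and 51.7% of probes were well above background in the WT channel and between 66.6% and 67.2% in the KO channel, and no probe was saturated. Tet1 itself gave KO minus WT log2 ratios of -0.18 and -0.20 in cortex, and of -0.23 and -0.10 in hippocampus. Which exons were removed is not given in the labels, so this probe does not check them. Of 5 cortex markers, 4 were higher in cortex, and all 6 hippocampus markers were higher in hippocampus, in both genotypes (limma, adjusted p under 0.05). All 8 choroid plexus markers were detected, with median KO minus WT of 0.53 and 2.11 in cortex and of -0.05 and -2.82 in hippocampus, and the 4 thalamus markers had medians from -0.07 to -0.23 on 3 arrays and -1.78 on hippocampus array 2. Single thalamus markers differed from these medians. Zic1 was also low on hippocampus array 1, at -1.38, and Tcf7l2 had -0.39 and -0.43 on hippocampus arrays 1 and 2. Of the 5 microglia markers, C1qa, C1qb and Trem2 had means of -0.53, -0.50 and -0.41 and were past limma's adjusted threshold, and Cx3cr1 and Csf1r had 0.05 and -0.05. Array medians lay between -0.59 and -0.22 over that list, and between -0.56 and 0.13 over the 4 oligodendrocyte markers. The 3 neuron markers had medians between 0.07 and 0.38. In bulk tissue, fewer cells of a type and less RNA per cell cannot be told apart.

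The question put to the window was how its genes differed between KO and WT, and whether the zinc finger genes did so more than their neighbours. A few genes differed strongly in both tissues while most members stayed close to the median of the array. A KO minus WT log2 ratio of one sign on all 4 arrays with a mean of at least 0.5 in size was seen in 18 of 112 members, against 3.11% of all genes kept. Of the 18, 11 were lower in KO, against 1.15% of all genes, and 7 were higher, against 1.96%. Since the window was picked on these ratios, nothing is read from that excess.

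Zfp874a, a zinc finger gene of the cluster, had the lowest ratio of all genes kept. Its level, the log2 of the normalised intensity, was 9.48 and 9.68 in WT cortex, 9.57 and 9.48 in WT hippocampus, 6.40 and 6.23 in KO cortex, and 6.48 and 6.32 in KO hippocampus. All 4 KO samples lay below all 4 WT samples, and the probe was not well above background in any KO sample. The KO minus WT ratio was -3.08, -3.44, -3.09 and -3.16 on the 4 arrays, with a mean of -3.19 ± 0.07 (limma's moderated SE, 4 arrays, as for every SE below). With KO values raised to a floor, the level was 9.43-fold lower in KO cortex and 8.71-fold lower in KO hippocampus. The floor was the faintest signal called well above background on each array, and the WT mean was divided by the KO mean. These are not minimum values, since brighter signals could also fail that call. Zfp808, for example, had 6.77 and 6.81 in KO cortex and was not well above background there. Without a dye swap, the folds are also open to dye bias. They depend on the background treatment, since the mean ratio was -1.74 with every background value kept as deposited and -5.90 with the scanner software's processed signals.

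Zfp429, another zinc finger gene of the cluster, lay between Zfp457 and Zfp874a along the chromosome. Its level was 8.36 and 8.53 in WT cortex, 8.42 and 8.50 in WT hippocampus, 7.07 and 7.02 in KO cortex, and 7.05 and 7.11 in KO hippocampus. The probe was well above background in every sample and the genotypes did not overlap. The mean ratio was -1.39 ± 0.06 (SE), or 2.63-fold lower in KO, and it was -0.75 with every background value kept.

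Lower zinc finger members with smaller ratios included Zfp458 and Zfp712. Zfp458 gave -0.63 and -0.78 in cortex and -0.96 and -0.95 in hippocampus (mean -0.83 ± 0.05, SE). Zfp712 gave -0.96 and -0.85 in cortex and -0.63 and -0.66 in hippocampus (mean -0.77 ± 0.05, SE). In both genes the KO level was below the WT level in every sample of both tissues. One zinc finger member was higher in KO by the same rule, Zfp87, at 0.64, 0.40, 0.43 and 0.56 (mean 0.51 ± 0.06, SE).

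**Figure D1:**
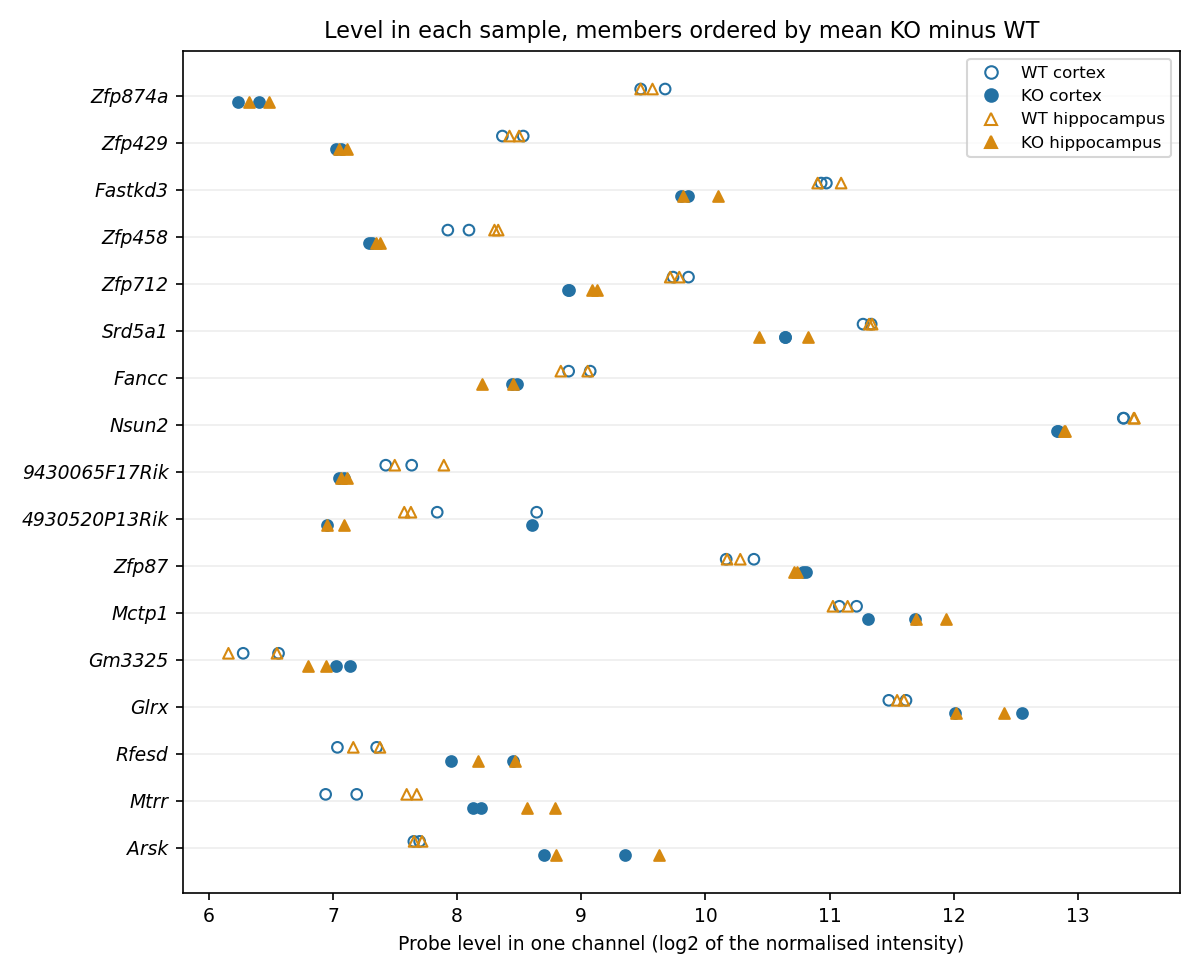
Level of 17 of the 18 named members in the 8 samples, as log2 of the normalised intensity on the horizontal axis, with WT as open and KO as filled symbols, cortex as circles and hippocampus as triangles; each symbol is 1 sample. Zfp874a, at the top, has KO levels of 6.23 to 6.48 against WT levels of 9.48 to 9.68, and Arsk, at the bottom, has KO levels of 8.70 to 9.63 against WT levels of 7.65 to 7.72.

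The zinc finger genes as a group did not shift together. Of 28 in the window, 25 were kept and Zfp808, Zfp456 and Gm10037 were not. Their median ratio was -0.02, against 0.05 for the 87 other members, 0.04 for the 350 zinc finger genes kept outside the window and 0.03 for all genes. Their SD across genes was 0.738, against 0.353 in the other members, 0.194 in zinc finger genes outside and 0.219 in all genes. That SD includes Zfp874a at -3.19, which weighs heavily in it. The median size of the mean ratio, sign aside, was 0.181, against 0.168 in the other members, 0.113 in zinc finger genes outside and 0.114 in all genes. By the rule of one sign and a mean of at least 0.5, 6 of the 25 were named, against 12 of the 87 other members. The same rule was met by 7 of the 350 zinc finger genes outside and by 3.11% of all genes. The groups were set by symbol and description, so the other members may hold further zinc finger genes. Gm3325, among the 12 named, and Gm5665 and Gm10324 counted as other members although their probes hold the linker stretch. These are descriptions, as the window was chosen on the ratios.

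Within the cluster, genes with low ratios alternated with genes near or above 0. All 6 zinc finger genes named lie among the 19 kept between 66 and 68 Mb, and the 6 zinc finger members elsewhere in the window had means between -0.09 and 0.18. From Zfp457 onward along the chromosome, the mean ratios were 0.26 for Zfp457, -0.01 for Zfp595, -0.10 for Zfp953, -1.39 for Zfp429, -0.29 for Zfp459, -3.19 for Zfp874a, 0.19 for Zfp874b, 0.23 for Zfp58 and 0.51 for Zfp87. The 2 lowest genes were thus separated by Zfp459 and followed by 3 genes above 0. Zfp874b, whose upstream sequence is printed above, gave 0.27, 0.07, 0.22 and 0.20 on the 4 arrays.

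One sign on all 4 arrays at any size was seen in 14 of the 25, against 45.8% of all genes. Beyond the 6 named, 8 kept one sign on all 4 arrays at a smaller size, with means between -0.29 and 0.26. Zfp708, Zfp759, Zfp459 and Zfp748 were below 0 and Zfp455, Zfp457, Zfp874b and Zfp58 above it. The other 11, among them Zfp935, Zfp934, Zfp367, Zfp369, Zfp595, Zfp953, Zfp738, Zfp273, Zfp72 and Zfp825, had mixed signs and means between -0.10 and 0.18. Rsl1 and Rslcan18, which the symbol rule left out of the zinc finger group, had means of 0.38 ± 0.10 and -0.17 ± 0.06 (SE). A wider set, chosen after seeing the data, added those 2 with A530054K11Rik and 4930441O14Rik. The latter were taken only because their present names, Zfp729a and Zfp85os, start with Zfp. With the wider set the zinc finger median stood -0.06 from that of the other members, against -0.07 without it. That small difference turned to 0.02 when only members above background in all 8 channels were used, and to 0.05 with the scanner software's processed signals.

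**Figure D2:**
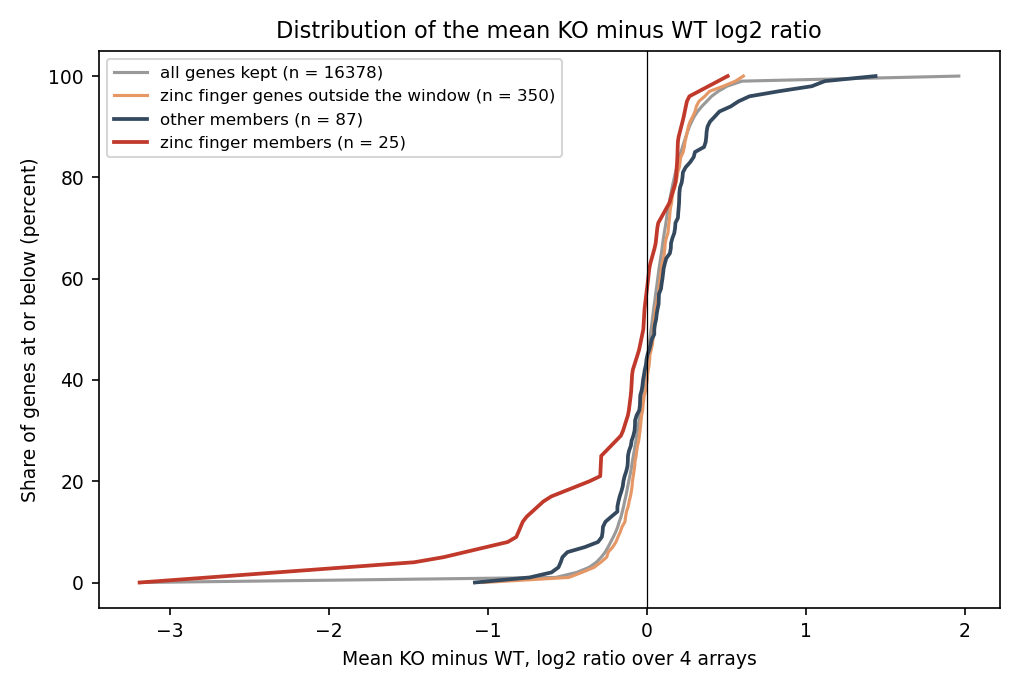
Share of genes (percent, vertical axis) whose mean KO minus WT log2 ratio over 4 arrays lies at or below the value on the horizontal axis, for the 25 zinc finger members, the 87 other members, the 350 zinc finger genes outside the window and all 16378 genes kept. The curve of the zinc finger members leaves the others on the low side, down to -3.19, and its median of -0.02 lies close to theirs.

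Among the other members, Fastkd3 and Mtrr gave ratios of opposite sign from neighbouring starts. Fastkd3 encodes an RNA-binding protein of the mitochondria. Its level was 10.93 and 10.97 in WT cortex, 11.09 and 10.90 in WT hippocampus, 9.86 and 9.80 in KO cortex, and 10.10 and 9.82 in KO hippocampus. Every KO sample lay below every WT sample, and the mean ratio was -1.08 ± 0.05 (SE), or 2.12-fold lower. Mtrr encodes methionine synthase reductase, which keeps methionine synthase active and so feeds the supply of methyl groups. Its level was 7.19 and 6.94 in WT cortex, 7.67 and 7.59 in WT hippocampus, 8.19 and 8.13 in KO cortex, and 8.79 and 8.56 in KO hippocampus. It was higher in KO within each tissue, by 1.0 and 1.19 in cortex and 1.11 and 0.97 in hippocampus, but was not well above background in any WT sample. The mean ratios amount to 2.13-fold in cortex and 2.06-fold in hippocampus under the background treatment used here. They rest on WT signal that was not well above background, so they are not minimum values. That signal was not raised to a floor. With every background value kept, the mean log2 ratio of Mtrr was 0.58, a smaller difference.

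Of the other higher members, 3 lie 2 Mb or less from the distal end. Arsk, which encodes a lysosomal sulfatase, had a level of 7.70 and 7.65 in WT cortex, 7.65 and 7.72 in WT hippocampus, 9.35 and 8.70 in KO cortex, and 9.63 and 8.80 in KO hippocampus. The KO samples numbered 1 lay above those numbered 2 in both tissues, and all lay above WT. No WT sample was well above background. The mean ratios amount to 2.55-fold higher in KO cortex and 2.88-fold in KO hippocampus, which again are not minimum values. Rfesd, named for its Rieske iron-sulphur domain, was likewise not well above background in WT, with ratios of 1.10, 0.92, 1.08 and 1.01. Their means amount to 2.01-fold in cortex and 2.06-fold in hippocampus, with the same limit. With every background value kept, the mean log2 ratios were 0.83 for Arsk and 0.55 for Rfesd, both smaller differences. Mctp1, a calcium-binding membrane protein gene, was above background throughout, with ratios of 0.47 and 0.23 in cortex and 0.79 and 0.67 in hippocampus.

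Glrx, which encodes the redox enzyme glutaredoxin, lies just proximal to these. Its level was 11.62 and 11.48 in WT cortex, 11.54 and 11.60 in WT hippocampus, 12.55 and 12.01 in KO cortex, and 12.40 and 12.02 in KO hippocampus. All KO samples were above all WT samples, and the mean ratio was 0.69 ± 0.11 (SE). Gm3325, near the proximal end and not well above background in WT, had ratios of 0.46, 0.86, 0.64 and 0.39. With WT values raised to a floor as for Zfp874a, its KO level was 1.48-fold higher in cortex and 1.22-fold higher in hippocampus. These are not minimum values either, and the mean log2 ratio was 0.16 when every background value was kept.

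The other lower members were Srd5a1, Nsun2, Fancc and 2 transcripts without an assigned function. Srd5a1, which encodes a steroid reductase that makes dihydrotestosterone and neurosteroid precursors, gave -0.63, -0.69, -0.52 and -0.89 (mean -0.68 ± 0.08, SE). Nsun2, which methylates cytosines in transfer RNA, gave -0.53, -0.53, -0.56 and -0.57, the narrowest range of the 18 (mean -0.55 ± 0.04, SE). Fancc, a gene of the Fanconi anaemia core complex for repair of DNA crosslinks, gave -0.45, -0.59, -0.39 and -0.85 (mean -0.57 ± 0.09, SE). Each of these 3 was above background in every sample, with all KO levels below all WT levels. The transcript 9430065F17Rik had a mean of -0.54 and 4930520P13Rik one of -0.52, both with WT signal above background in only 1 of 4 WT samples. For 4930520P13Rik the ratio on cortex array 2 was -0.04, and WT and KO levels overlapped.

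**Figure D3:**
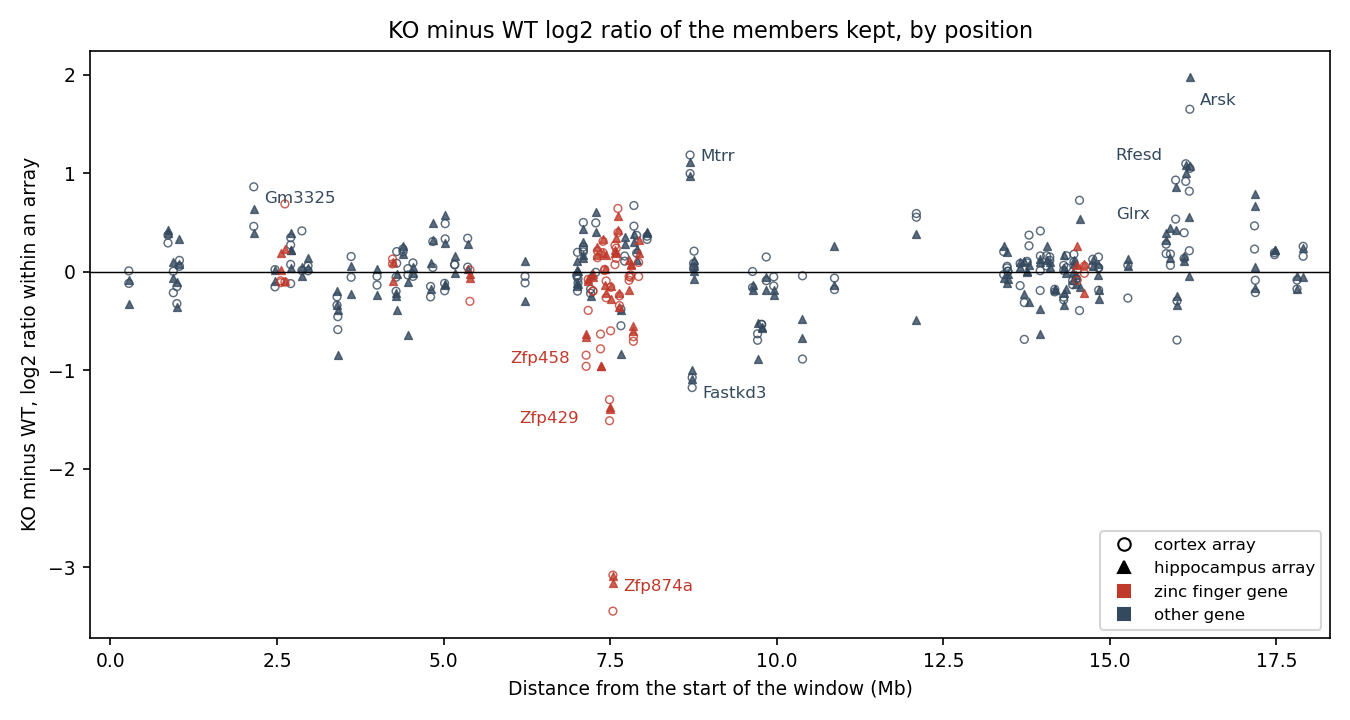
KO minus WT log2 ratio of the 112 members kept (vertical axis), 4 points a gene, 1 an array, against distance from the start of the window in Mb (horizontal axis). Red points are zinc finger genes and dark points other genes; open circles are cortex arrays and filled triangles hippocampus arrays. Zfp874a and Zfp429, which had the lowest mean ratios, lie in the zinc finger cluster and Fastkd3 just beyond it. Low points also lie elsewhere, such as those of Fancc before the cluster. Arsk, Rfesd and Glrx near the far end are above 0 on every array.

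Along the window, the counts of large ratios of each sign, read on the brightest probes, differed by position. Between 66 and 68 Mb, 6 of 31 members were lower and 1 higher by the rule above, and between 68 and 70 Mb, 3 of 10 were lower and 1, Mtrr, higher. Between 76 and 78 Mb, 3 of 10 were higher and none lower. Over all genes kept, 1.15% were lower and 1.96% higher by that rule, and the window was chosen on these ratios. Of the higher members in these stretches, Mtrr, Arsk and Rfesd passed the filter through their KO signal alone, which favours positive ratios. The other Arsk probe was below 0 on every array. The counts therefore cannot show that direction depends on position. No member was named between 60 and 62, 64 and 66, or 72 and 74 Mb, stretches that held 5, 14 and 10 members. The members closest to the edges were small in comparison. Just inside, Gas1 had a mean of -0.13, Dapk1 0.37, D13Mgi7 -0.12 and Fam172a 0.15, and just outside, Zcchc6 had 0.04, Isca1 0.02, Pou5f2 0.22 and Nr2f1 -0.13.

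The ratios were similar in cortex and hippocampus, which come from separate arrays. Across the 112 members, the correlation of the 2 tissue means was 0.946 (Pearson) and 0.832 (Spearman), and without Zfp874a it was 0.912 and 0.827. Over the 94 members not named it was 0.678 and 0.719. Genes are not replicates, and both tissues share the dye orientation, so the figures carry no p. They come from the ratios the window was chosen on. The same correlation over all genes kept was not computed, so the figures are not read as a trait of the window. The difference of the KO effect between tissues, which the choice of the window did not use, was past the threshold in 0 of 112 members and 0 of 16378 genes (0.0%; limma, Benjamini-Hochberg adjusted p under 0.05), with 4 members and 742 genes (4.53%) at an unadjusted p under 0.05. Those 4, named after their values were seen, were Zfp712 at -0.26 ± 0.09 (cortex minus hippocampus, SE), Mctp1 at -0.38 ± 0.12, Slc12a7 at 0.42 ± 0.14 and Tert at 0.44 ± 0.16. For each the limma adjusted p was 1. That does not show the effects to be equal.

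In limma's fit over all genes, 29 of the 112 members were past an adjusted p of 0.05 in the mean of both tissues, beside 11.1% of genes kept. These are the ratios the window was chosen on, so the counts in this paragraph are a description and no test of the window. They comprised 15 higher, against 7.20%, and 14 lower, against 3.88%. In cortex alone the count was 3, against 0.0611% of genes, and in hippocampus 1, against 0.0183%. The count fell to 0 when outlying background values were kept as deposited or when an intensity trend and robust variance estimation were used together, and it was 1 without either cortex array and 0 without either hippocampus array, whereas the rule of one sign and size named 16 or 17 members in those 4 cases. The medians of the choroid plexus and thalamus markers stood apart on hippocampus array 2, and that of the choroid plexus markers also on cortex array 2, at 2.11. Leaving out 1 array therefore does not remove that difference. What part those cells had in the ratios was not tested.

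Signal near background accompanied many of the higher ratios. The 24 members kept that were not well above background in any WT sample had a median ratio of 0.20, beside 0.15 for the 2702 genes kept of the same kind over the whole array. Such genes passed the filter through KO alone, which favours positive ratios, so neither median supports a direction. Further, 4 of the 7 higher genes named, Arsk, Mtrr, Rfesd and Gm3325, were among them. The 71 members above background in all 8 channels had a median of -0.01. Of these 71, 8 were named as lower, against 0.999% of all genes so measured, and 3 as higher, Glrx, Mctp1 and Zfp87, against 0.543%. The part of the dye in the ratios of dim probes was not tested.

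Several probes of a gene can be read against each other, since they share the RNA and the dye. There were 41 members with more than 1 probe in the window, and 16 additional probes in 14 genes were above background in all 8 channels together with the brightest probe. The sign of the mean ratio was the same as that of the brightest probe in 9 of the 16. Fastkd3 was low on both of its probes, at -1.08 ± 0.07 (SD over 4 arrays) and -0.77 ± 0.07. Gm7969, close to the cluster, had 0.37 on the brightest probe and 0.39 on the other, and A530054K11Rik, now named Zfp729a, had 0.22 and 0.20.

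Other genes gave ratios that differed by probe. Rhobtb3 had -0.69, -0.29, -0.24 and -0.34 on the brightest probe and 1.22, 0.82, 1.32 and 0.69 on the other, so the 2 probes did not overlap on any array. Ptdss1, which encodes a phosphatidylserine synthase, had means of 0.20 ± 0.05, -0.08 ± 0.09 and -0.78 ± 0.11 (SD) on 3 probes. The lowest of them, at chr13:67099000-67099059, and the brightest, at chr13:67098825-67098884, lie close together. Ankrd32 had -0.10 ± 0.12 on the brightest probe and 0.48 ± 0.13 on the other, and Gas1, a hedgehog coreceptor gene, had -0.13 ± 0.14 and -0.46 ± 0.12.

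Arsk and Fancc, among the named genes, also had a probe of the other sign. The other Arsk probe, above background in 2 of 4 WT samples and all KO samples, gave -0.86, -0.11, -0.92 and -0.26, against 1.65, 1.05, 1.97 and 1.08 for the brightest. Fancc gave -0.57 ± 0.20 on the brightest probe and 0.27 ± 0.15 on the other, which no WT sample had well above background. The other Mctp1 probe kept the sign of the brightest at a smaller mean, 0.14 ± 0.25. For these genes the ratio depended on the probe read, and the reason was not tested. Zfp874a, Zfp429, Mtrr and Rfesd had no additional probe that was above background.

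**Figure D4:**
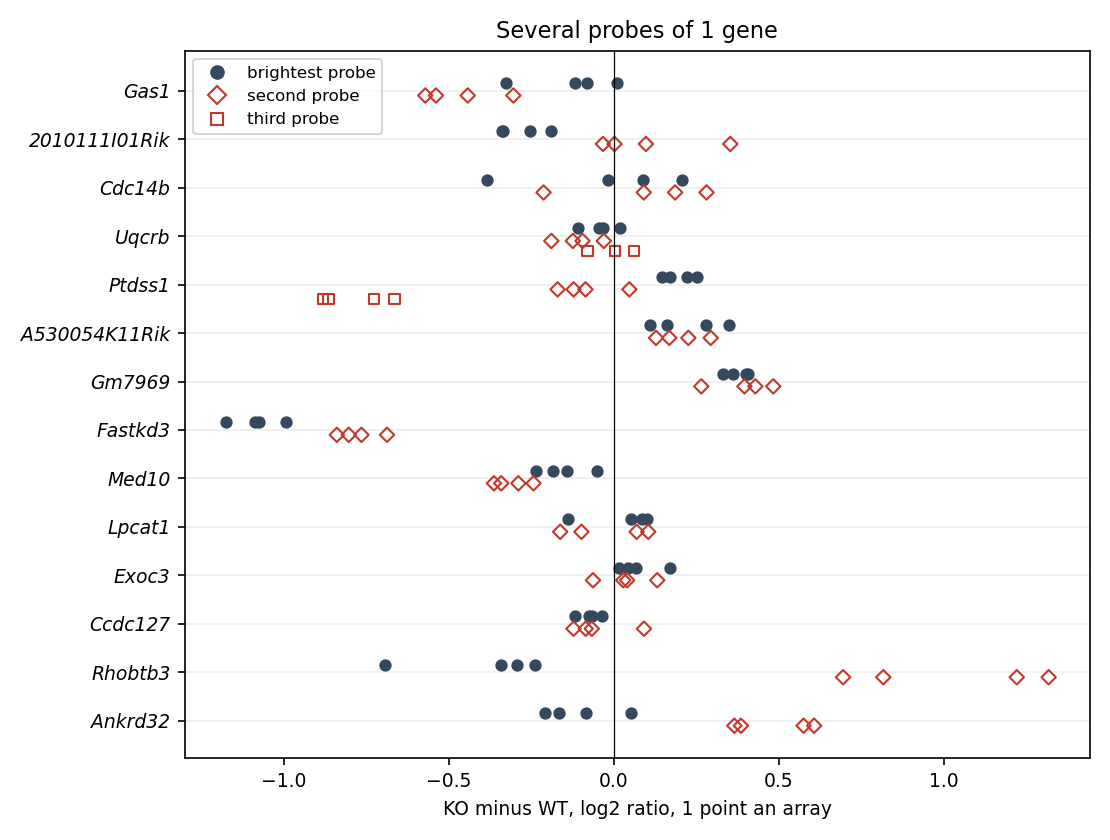
KO minus WT log2 ratio on each of 4 arrays (horizontal axis) for 14 members with more than 1 probe above background in all 8 channels; filled circles are the brightest probe, open diamonds and squares the others. Fastkd3 is below 0 on both probes, whereas the Rhobtb3 probes lie on opposite sides of 0 and the third Ptdss1 probe lies near -0.78.

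Apart from Fastkd3 and Fancc, the members kept of the gene groups listed here had mean ratios under 0.5 in size. Of the 11 cathepsin genes and their relatives, mostly expressed in placenta, 8 were well above background in no sample and Ctsl, Ctla2a and Ctla2b were kept, with means of -0.19, 0.15 and -0.23. The patterning genes Irx1 and Irx4 had 0.26 and 0.09, and Irx2 was not kept. The hedgehog receptor gene Ptch1 had -0.01. Of the mitochondrial genes, only Fastkd3 had a large ratio, with Ndufs6 at 0.05, Mrpl36 at -0.02 and Sdha, a subunit of succinate dehydrogenase, at 0.12. Of 6 transporter genes, 3 were kept, with the dopamine transporter Slc6a3 at -0.28, the sodium-proton exchanger Slc9a3, well above background in no WT sample, at -0.27 and the potassium-chloride cotransporter Slc12a7 at -0.30. In the limma fit 1 of the 3, Slc9a3, was past the adjusted threshold as lower, beside 3.88% of all genes. The peptidase and calpain genes Erap1, Pcsk1 and Cast had 0.06, -0.00 and -0.15, beside 0.21 for Lnpep, whose probe lies outside the window, and of the genome upkeep genes besides Fancc, Tert had 0.10, Trip13 0.15 and Brd9 0.10.

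The partners through which KRAB zinc finger proteins act lie outside the window and had small ratios. All 14 were kept, 1 was past the threshold as higher (11.1% of all genes were past it in either direction) and none as lower, and their median was 0.11. Trim28 had a mean of -0.06 and Setdb1 0.17. The gene past the threshold was Smarcad1, a chromatin remodeller, at 0.36.

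The comparison of cortex with hippocampus within a genotype did not enter the choice of the window and used a single dye. In WT, 13 of 112 members differed (limma separate-channel fit, adjusted p under 0.05), against 15.2% of all genes, and in KO 12 of 112, against 15%. In WT 7 were higher in cortex, against 7.22%, and 6 lower, against 7.96%, and in KO 5 were higher, against 7.58%, and 7 lower, against 7.42%. Both counts were lower with 1 array left out. Without cortex array 1, cortex array 2, hippocampus array 1 or hippocampus array 2 they were 3, 1, 6 and 10 in WT and 2, 1, 2 and 6 in KO. In both genotypes 7 members passed, all with the same direction. The 6 that passed in WT and the 5 that passed in KO had the same sign in the other genotype, and, as given above, no member's KO effect differed between tissues by the adjusted test.

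Nkd2, which encodes an inhibitor of Wnt signalling, showed the widest tissue difference. Its level was 8.68 and 8.48 in WT cortex against 9.89 and 9.69 in WT hippocampus, and 8.85 and 8.89 in KO cortex against 9.99 and 9.82 in KO hippocampus. Cortex was below hippocampus in all samples, by -1.21 ± 0.11 (log2, SE; limma adjusted p = 0.000664) in WT and -1.04 ± 0.11 (limma adjusted p = 0.0012) in KO. Brd9, a subunit of a chromatin remodelling complex, and Med10, a Mediator subunit, were also lower in cortex. Brd9 differed by -0.58 ± 0.11 in WT and -0.52 ± 0.11 in KO, and Med10 by -0.45 ± 0.07 and -0.33 ± 0.07. Mtrr was lower in cortex by -0.52 ± 0.11 in KO (limma adjusted p = 0.0221), where it was above background. The difference of -0.57 in WT was past the threshold too, but no fold is given for it since neither group was well above background.

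Other genes were higher in cortex. Zfp367, a zinc finger gene outside the cluster, had 10.03 and 10.07 in WT cortex against 9.65 and 9.64 in WT hippocampus. It was higher in cortex by 0.40 ± 0.08 in WT (limma adjusted p = 0.0198) and 0.50 ± 0.08 in KO (limma adjusted p = 0.00809). Pcsk1, the prohormone convertase of neuropeptide processing, was higher by 0.57 ± 0.09 in WT and 0.37 ± 0.09 in KO, and 1700001L19Rik by 0.40 ± 0.07 and 0.37 ± 0.07. With Nkd2, Brd9, Med10 and Mtrr, these 3 make up the 7 members that passed in both genotypes.

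In WT alone the threshold was passed by Cntnap3, a neurexin-family adhesion gene, at 0.57 ± 0.15, Ell2, an elongation factor gene, at 0.50 ± 0.11, 1700037F03Rik at 0.37 ± 0.08, Gm3604 at 0.34 ± 0.09, Ahrr at -0.36 ± 0.08 and Zfp458 at -0.31 ± 0.08. Of these, Cntnap3, 1700037F03Rik and Gm3604 were not well above background in any WT sample. Ahrr, the repressor of the aryl hydrocarbon receptor, was above it in 1 of 2 WT hippocampus samples and none in cortex. Its 1.28-fold higher level in hippocampus rests on cortex signal that was not well above background, and is not a minimum value. Zfp458 was above background in every sample, at 7.92 and 8.10 in WT cortex, 8.30 and 8.33 in WT hippocampus, and between 7.29 and 7.38 in the 4 KO samples, where the tissue difference was -0.06 ± 0.08 (limma adjusted p = 0.701). In KO alone it was passed by Cast, the calpain inhibitor calpastatin, at 0.47 ± 0.12, Habp4 at 0.32 ± 0.07, the cell death kinase gene Dapk1 at -0.40 ± 0.10, Trip13, which remodels meiotic and checkpoint proteins, at -0.39 ± 0.09, and A530054K11Rik at -0.28 ± 0.07. Whether these differ between genotypes was tested by the difference of KO effects, for which each had a limma adjusted p of 1.

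**Figure D5:**
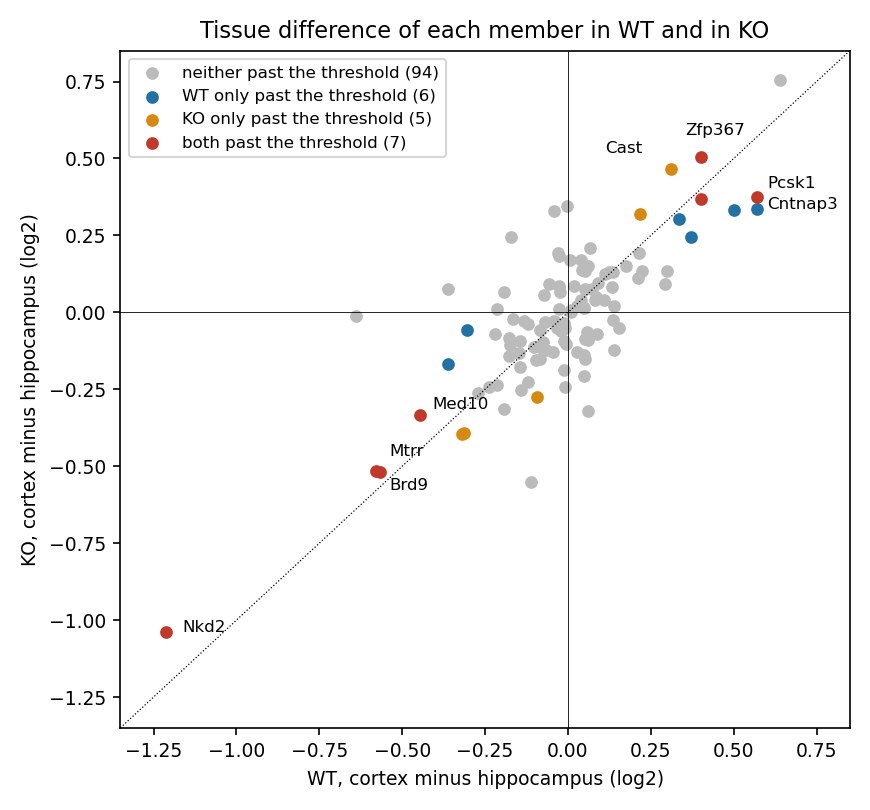
Cortex minus hippocampus (log2) of the 112 members in WT (horizontal axis) and in KO (vertical axis); the dotted line marks equal values. Of the coloured points, 7 passed the limma threshold in both genotypes, 6 in WT and 5 in KO, and Nkd2 lies at -1.21 and -1.04. The other 94 members passed in neither.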

How the data were processed

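Each of 4 Agilent two-colour arrays carried a WT (Cy3) and a KO (Cy5) sample. Per the file headers, the deposited scanner files came from Feature Extraction 10.1.1.1 and hold a linear intensity for signal and background in each channel, flags of other kinds (well above background, outlier), and mm9 probe positions. The paired files of an array were identical in all 4 pairs. The deposited value table, on a log2 scale of normalised values, came from limma per the submitters' processing notes and served as an alternative. It correlated at 0.938 to 0.967 with the ratios used here, its channel medians lay between 8.21 and 8.25, and its centring is not given in the sources used here.

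Mean signals were corrected with normexp (offset 50), with outlying local backgrounds replaced by the array median, and normalised by loess (span 0.3, control spots at weight 0) in R 4.3.3 with limma 3.58.1. Spots of a probe were averaged. Of several probes, the brightest inside the window stood for the gene, and in 1 gene a brighter probe outside was passed over. Ratios were fitted with 1 mean per tissue, which leaves 2 residual degrees of freedom. Every SE is limma's moderated standard error, which draws a gene's variance toward a value shared by all genes. It can thus be wider or narrower than the spread of that gene's own arrays. Tissue contrasts used Aquantile scaling and a separate-channel fit with an intraspot correlation of 0.192. Benjamini-Hochberg adjustment ran over 16378 genes. The number of arrays limits the precision. The scripts were tested on simulated data.

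Named are members with one sign on all arrays and a mean of at least 0.5, all zinc finger members kept (a symbol starting with Zfp, Zkscan or Zscan, or an array description with the words zinc finger protein or regulator of sex-limitation, which the descriptions of Rsl1 and Rslcan18 do not hold), members with the largest tissue differences past an adjusted p of 0.05, and members of lists. The values of 1 named member are not reported here. Members and lists were chosen with earlier results of these data known. Names were updated through RefSeq on GRCm38.p6 and promoters come from it, whereas probe coordinates are mm9. Sample numbers 1 and 2 were not taken as pairs across tissues, because with 2 numbers the correlation of same-numbered deviations was 0.160 for ratios, -0.09 for WT and 0.244 for KO. Alternatives covered background, normalisation, filter, probe choice, variance model, window, zinc finger definition, single arrays and the replicate block.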

Additional observations from a re-analysis of the deposited data

Results flagged for a closer look

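The window also holds 99 probes without a gene symbol, which enter no comparison above. Of these, 42 were above background on all 4 arrays in WT or in KO, and 2 had one sign on all arrays and a mean of at least 0.5 in size. Probe A_55_P2419854, at 62155182 to 62155241 of mm9 chromosome 13, stood at -0.77 (SD 0.158), with -0.80 and -0.98 in cortex and -0.64 and -0.66 in hippocampus. It lies close to the probe of Gm3325, whose ratio was positive. Probe A_52_P222230, at 67992543 to 67992602 near the distal end of the zinc finger cluster, stood at -0.57 (SD 0.309), with -0.40 and -0.74 in cortex and -0.22 and -0.90 in hippocampus. Both were lower in KO, and none of the 42 was higher by that rule.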

How the results depend on the processing

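Keeping every background value as deposited left 0 members past the adjusted p of 0.05 in KO over WT, named 10 by sign and size, put the zinc finger median -0.0157 from that of the other members and left 7 members in the WT tissue test. With Feature Extraction processed signals that median difference was 0.0468, and the WT and KO tissue tests passed 4 and 2 members. The strict filter gave 18 and 11 of 71 members and a difference of 0.0212, no filter 44 members and -0.0146, and the deposited value table -0.0316. An intensity trend with robust variance passed 0. Without each array in turn, KO over WT passed 0 to 1, sign and size named 16 to 17, and the tissue tests passed 1 to 10 in WT and 1 to 6 in KO; with 3 arrays, 1 tissue rests on a single array assumed to vary like the others, and where no intraspot correlation could be fitted that of all arrays was used. Median centring in place of loess passed 91 and named 60, with a zinc finger difference of -0.55, but it put the median of all genes at 0.53. Under it Gm3325 was -0.21 and Nsun2 0.21, and relative to that median 17 of the 18 named genes kept their direction, Gm3325 being the exception. The replicate block, with number 1 or 2 as a term, passed 34 members in KO over WT, 8 in the WT and 5 in the KO tissue test. The other named ratios held their sign under every alternative run, but not their size: Zfp874a ran from -5.90 with processed signals to -1.74 with every background kept, and Arsk from 0.45 with all its probes averaged to 2.78. Shares over all genes are not given for the alternatives, so the member counts under them, here and above, are not read as a result about the window. The causes were not tested.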
